A study of Mus musculus with 8 samples.

Results

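The genes described here are the interferon regulatory factors (IRFs) other than Irf4, which are Irf1, Irf2, Irf3, Irf5, Irf7, Irf8 and Irf9. They were taken by family membership as the probe sets that the platform annotation assigns to 1 of these symbols alone, which gave 8 of the 35556 probe sets. All 7 genes passed the filter on low signal and entered the fit of 11128 genes. Irf1 has a second probe set, which lay between 7.60 and 7.79 log2 signal on all 8 arrays, below the filter value of 7.85, and was not used.

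IRFs are transcription factors that share a DNA-binding domain reading GAAA repeats, and they run the induction of interferons and the response to them. Irf3, Irf5 and Irf7 are switched on by phosphorylation downstream of nucleic acid sensors and Toll-like receptors, while Irf9 joins Stat2 in ISGF3, the complex that carries the type I interferon signal to the interferon-stimulated response element (ISRE). Irf1 is induced through STAT sites of the GAS type and activates antigen presentation and guanylate-binding protein genes, Irf2 competes with it at shared sites, and Irf8 pairs with PU.1 or BATF factors in myeloid, B and T cells.

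The cells were mouse T cells labelled as Th17, a helper T cell class that makes interleukin-17, and their RNA was hybridised to Affymetrix Mouse Gene 1.0 ST arrays in 4 groups of 2, each labelled as a biological replicate. In the RORγt experiment, written RORgt in the labels, cells of RORgt-deficient (-/-) mice were set against cells of RORγt wild-type mice. In the SRC-3 experiment, cells of SRC-3-deficient mice, whose source is labelled SRC-3 (f/f), were set against cells of SRC-3 wild-type mice. The Cre driver behind that floxed label, the ages of the mice and whether cells were pooled are not given in the sources used here. The protocol describes naive CD4 T cells stimulated through CD3 and CD28, with IL-1, IL-6 and IL-23 for the pathogenic Th17 state. SRC-3, the product of Ncoa3, is a steroid receptor coactivator, and RORγt is the nuclear receptor that drives the Th17 programme.

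Array medians lay between 7.76 and 7.80 log2 signal in the RORγt experiment and between 7.90 and 7.93 in the SRC-3 experiment, and replicates correlated at r = 0.989 to 0.997 across genes. Ncoa3 read 11.15 and 10.97 in SRC-3-deficient cells, against 11.76 and 11.53 in SRC-3 wild-type cells (log2 fold change -0.58, limma adjusted p = 0.0567). The gene of RORγt was not analysed here. Il17a, its target and the signature cytokine of Th17 cells, read 7.52 and 7.16 in RORγt-deficient cells, against 11.63 and 11.27 in RORγt wild-type cells. Both RORγt-deficient arrays had low Xist (6.37 and 6.08), against 12.55 and 12.76 on the RORγt wild-type arrays, so sex and genotype cannot be told apart there. The 2 SRC-3-deficient arrays differed from each other in Xist (7.10 and 13.60), against 13.65 and 13.52 on the SRC-3 wild-type arrays. All 5 measured T cell markers passed the filter.

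The sequences before the gene starts are shown for the 3 members that rose without RORγt and for Irf9, the member whose signal followed Irf7 most closely. These 4 varied together over the 8 arrays, with the group differences included. Each is the RefSeq window of 300 bases (GRCm38.p6) from 250 before to 50 after the annotated start, on the strand of the gene. Capitals mark the letters searched on both strands, which were an ISRE core (GAAA, any 2 bases, GAAA), a GAS core (TTCNNNGAA) and a ROR core (AGGTCA). These letters occur in 3.44%, 8.3% and 16.3% of the 32851 windows of the genome, in that order. All 7 members had a window, 10 in all.
Irf1, chr11:53769764-53770063, plus strand: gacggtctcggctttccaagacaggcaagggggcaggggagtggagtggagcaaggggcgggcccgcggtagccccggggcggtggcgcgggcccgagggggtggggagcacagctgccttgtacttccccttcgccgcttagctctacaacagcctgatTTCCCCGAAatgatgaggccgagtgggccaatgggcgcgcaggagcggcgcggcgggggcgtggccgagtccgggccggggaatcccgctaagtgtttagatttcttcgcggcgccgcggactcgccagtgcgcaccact
Irf2, chr8:46739495-46739794, plus strand: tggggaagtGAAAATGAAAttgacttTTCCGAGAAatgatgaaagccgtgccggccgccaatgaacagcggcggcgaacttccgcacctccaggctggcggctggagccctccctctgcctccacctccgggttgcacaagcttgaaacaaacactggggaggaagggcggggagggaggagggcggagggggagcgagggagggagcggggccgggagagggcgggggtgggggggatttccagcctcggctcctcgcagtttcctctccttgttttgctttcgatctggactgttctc
Irf7, chr7:141266375-141266674, minus strand: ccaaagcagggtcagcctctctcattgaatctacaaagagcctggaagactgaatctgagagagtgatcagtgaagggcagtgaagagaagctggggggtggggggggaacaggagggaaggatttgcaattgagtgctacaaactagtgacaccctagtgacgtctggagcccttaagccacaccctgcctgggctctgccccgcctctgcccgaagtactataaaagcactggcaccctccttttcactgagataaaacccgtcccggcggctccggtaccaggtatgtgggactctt
Irf9, second of 2 windows, chr14:55604329-55604628, plus strand: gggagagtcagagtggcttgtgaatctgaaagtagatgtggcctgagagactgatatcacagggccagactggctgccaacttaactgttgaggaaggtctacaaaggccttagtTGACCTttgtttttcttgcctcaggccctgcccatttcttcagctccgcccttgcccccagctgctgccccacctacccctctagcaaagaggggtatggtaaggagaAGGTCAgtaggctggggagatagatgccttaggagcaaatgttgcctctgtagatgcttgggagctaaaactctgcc
The Irf1 window shown, the first of 2, held a GAS core starting 90 bases before the start. The Irf2 window held an ISRE core 241 bases and a GAS core 224 bases before the start, with no shared base. The Irf7 window held none of the 3 letter patterns, and the Irf9 window held 2 ROR cores, 135 bases (reverse strand) and 27 bases before the start. Irf8 held 2 GAS cores, 171 and 153 bases before its first start. No match was found in the windows of Irf3 and Irf5, in the second windows of Irf1 and Irf8 or in the first window of Irf9. A match of letters is a description of the sequence and shows no binding.

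Loss of RORγt went with higher Irf1, Irf2 and Irf7. Irf7 had the largest difference of the 7 members, at 2.19-fold, followed by Irf1 at 1.48-fold and Irf2 at 1.31-fold. The 3 calls stand against 10.0% of all genes tested that were called higher in RORγt-deficient cells, 9.37% called lower and 19.4% called in either direction (limma, adjusted p threshold 0.05). At an unadjusted p of the same size, 5 of the 7 members passed, against 34.6% of all genes. The median log2 fold change of the members was 0.36, against 0.00 for all genes, and their median size without sign was 0.37, against 0.13.

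Irf7, the factor that amplifies type I interferon production once interferon has been sensed, read 11.32 and 10.66 log2 signal in RORγt-deficient cells, against 9.91 and 9.82 in RORγt wild-type cells. Both deficient arrays lay above both wild-type arrays, and the deficient pair was far apart. The log2 fold change was 1.13 ± 0.31 (SE, 95% interval 0.41 to 1.85, n = 2 each, limma adjusted p = 0.0406), at percentile 99.6 of all genes. The spread of the RORγt-deficient pair was at percentile 99.8 among genes, against percentile 65.4 for the RORγt wild-type pair. Without RORγt-deficient replicate 1 the value was 0.80 and the call was lost (adjusted p = 0.231). The call was also lost without RORγt wild-type replicate 1 (1.18, adjusted p = 0.149) or replicate 2 (1.08, adjusted p = 0.178).

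Irf3, the constitutively present partner of Irf7 downstream of Tbk1, read 10.08 and 10.16 in RORγt-deficient cells, against 10.03 and 10.05 in RORγt wild-type cells. The pairs were apart by a margin smaller than the gap within the deficient pair, and the log2 fold change of 0.08 (95% interval -0.07 to 0.23, limma adjusted p = 0.418) did not pass. Irf5, the third sensor-activated member and a driver of inflammatory cytokine genes in myeloid cells, read 9.30 and 9.09 in RORγt-deficient cells, against 9.62 and 9.51 in RORγt wild-type cells. Irf5 was the one member whose deficient arrays both lay below the wild-type arrays, at -0.37 ± 0.14 (95% interval -0.69 to -0.05, unadjusted p = 0.0278, limma adjusted p = 0.0978). It passed under 5 of 15 alternatives, with values from -0.48 to -0.27 over all 15. The 4 RORγt arrays alone gave a limma adjusted p of 0.0214, array weights 0.0263 and a replicate block 0.00703. Irf5 also passed with 1 SRC-3 wild-type array left out, whichever it was.

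Irf9, the DNA-reading subunit of ISGF3, read 11.61 and 11.50 in RORγt-deficient cells, against 11.22 and 11.17 in RORγt wild-type cells. The pairs did not overlap, and the difference of 0.36 ± 0.11 (95% interval 0.10 to 0.62, unadjusted p = 0.0129, limma adjusted p = 0.0597) lay just outside the threshold. Irf9 passed under 6 of 16 alternatives, with values from 0.30 to 0.42 over all 16. The 4 RORγt arrays alone gave a limma adjusted p of 0.00827, array weights 0.0113 and a replicate block 0.00450. Irf9 also passed under a trend and robust prior and with 1 SRC-3 wild-type array left out, whichever it was.

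Irf1, the activator, read 11.09 and 11.14 in RORγt-deficient cells, against 10.61 and 10.49 in RORγt wild-type cells. The deficient pair was tight and clear of the wild-type pair, and the log2 fold change was 0.56 ± 0.09 (95% interval 0.36 to 0.76, limma adjusted p = 0.00641). The call was lost in 1 of 16 alternatives, without RORγt wild-type replicate 2 (0.50). Most of the 16, such as leaving out an SRC-3 array, left the value itself at 0.56. Leaving out 1 RORγt array at a time gave 0.50 to 0.62. Irf2, its competitor, read 11.68 and 11.54 in RORγt-deficient cells, against 11.26 and 11.19 in RORγt wild-type cells. These pairs were apart too, with a log2 fold change of 0.39 ± 0.07 (95% interval 0.22 to 0.55, limma adjusted p = 0.0104). The Irf2 call was lost without RORγt-deficient replicate 1 (adjusted p = 0.0849), RORγt wild-type replicate 1 (adjusted p = 0.0523) or RORγt wild-type replicate 2 (adjusted p = 0.0819), with values between 0.32 and 0.42. So the activator and the competitor were both higher in RORγt-deficient cells.

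Irf8 read 9.41 and 9.80 in RORγt-deficient cells, against 9.66 and 9.86 in RORγt wild-type cells. The pairs overlapped, and the log2 fold change was -0.16 (95% interval -0.58 to 0.27, limma adjusted p = 0.592). In all, the deficient and wild-type pairs did not overlap for 6 of the 7 members, against 70.0% of all genes. The deficient arrays were above for 5 of these, against 35.8% of all genes, and below for Irf5, against 34.2%.

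**Figure D1:**
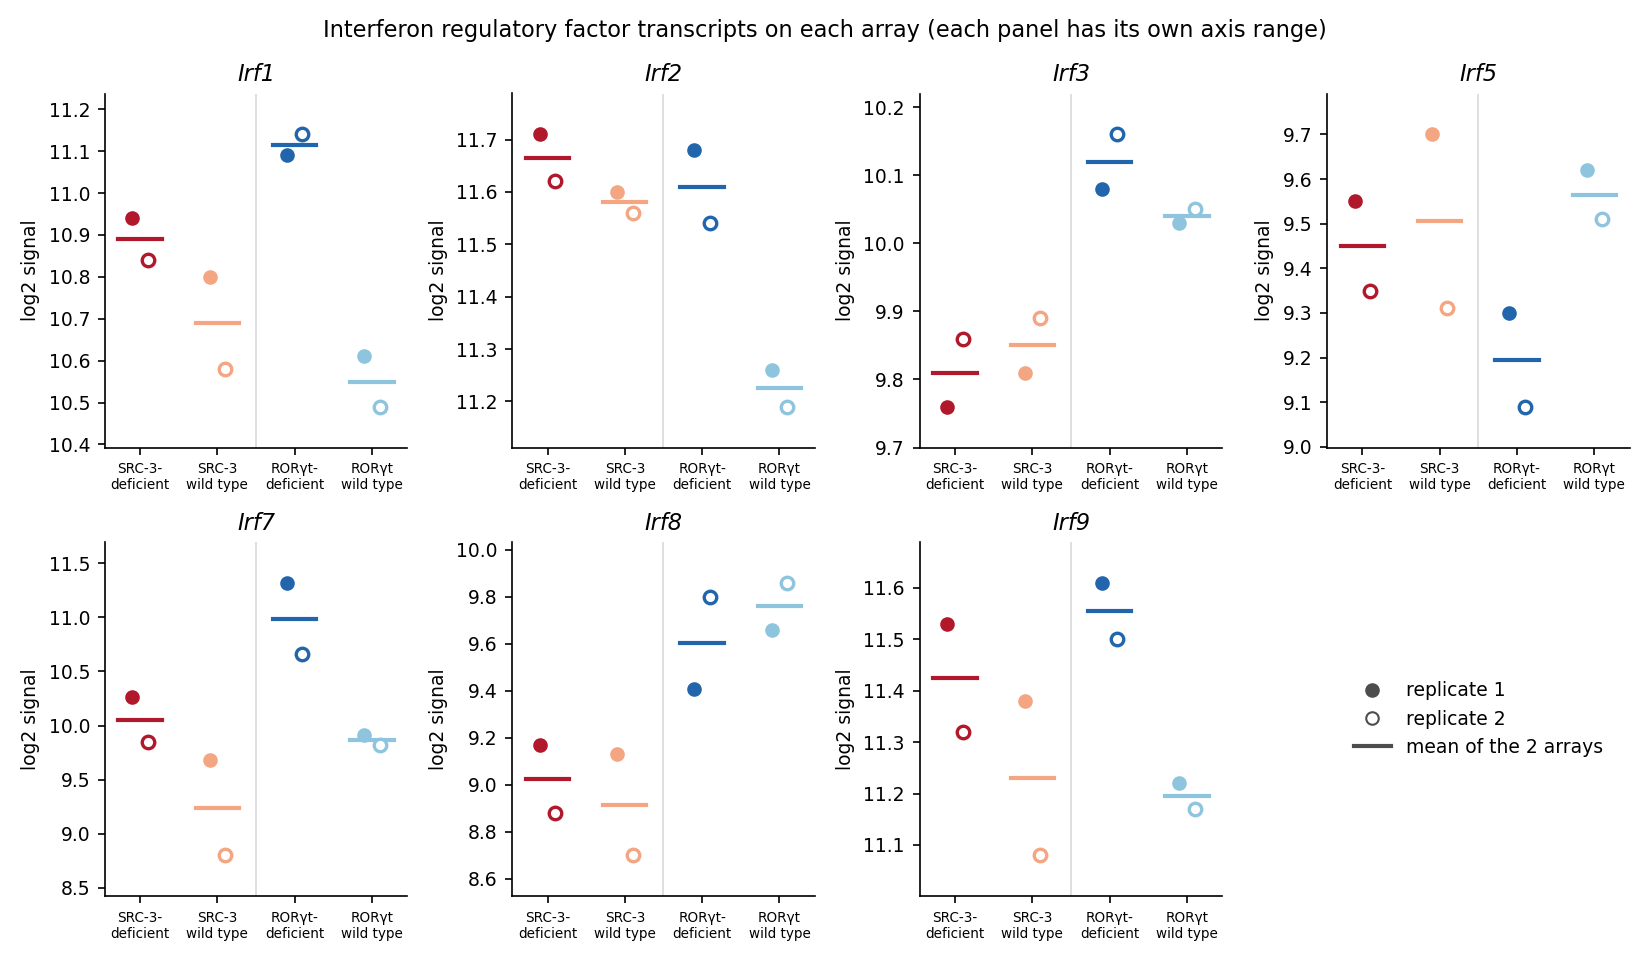
Log2 signal (vertical axis, own range in each panel) of the 7 interferon regulatory factors on the 8 arrays, with replicate 1 filled, replicate 2 open and a line at the mean of the 2 arrays. In RORγt-deficient cells both Irf7 arrays (11.32 and 10.66) lie above both RORγt wild-type arrays (9.91 and 9.82), while the Irf8 pairs overlap.

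The plot of signal by array shows that Irf8 was the one member whose pairs overlapped in the RORγt comparison, while in the SRC-3 comparison the pairs of Irf3, Irf5, Irf8 and Irf9 did. Irf5 and Irf8 are also made by myeloid and B cells, so the markers of those cells are given with them. Of 8 macrophage or monocyte markers, Cd68 alone passed the filter. The summed linear signal of the list was 1504 to 1663 in RORγt-deficient cells, against 1866 to 1917 in RORγt wild-type cells. Cd68 read 9.79 and 10.07 log2 signal in RORγt-deficient cells, against 10.33 and 10.26 in RORγt wild-type cells. Its log2 fold change of -0.37 was not called (limma adjusted p = 0.0834). Of the 7 markers below the filter, Itgam (0.04) and Mpeg1 (0.18) had positive log2 fold changes. The rest had negative ones, down to -0.20 for Cd14. Of 6 measured B cell markers, Cd79b and Ebf1 passed, and the list summed to 1744 to 1795 in RORγt-deficient cells, against 3379 to 3651 in RORγt wild-type cells. Ebf1 fell by 1.33 on the log2 scale without RORγt (limma adjusted p = 0.0131) and carried that sum, at 1117 to 1127 in RORγt-deficient cells, against 2654 to 2980 in RORγt wild-type cells. The other 5 B cell markers summed to 616 to 678 in RORγt-deficient cells, against 671 to 725 in RORγt wild-type cells, and Cd79a (0.06) and Ms4a1 (0.09) had small positive log2 fold changes. None of the 6 dendritic cell markers passed, with sums of 696 to 747 in RORγt-deficient cells, against 751 to 782 in RORγt wild-type cells. Cd79a, Ms4a1, Csf1r and Itgax were among the markers below the filter. Spi1, the gene of PU.1, was below the filter as well. The part of these cells in the Irf5 and Irf8 values was not tested, and in bulk cultures fewer cells of a type and less RNA per cell cannot be told apart. Which cells of the culture made the Cd68 and Ebf1 signal was not tested either.

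Loss of SRC-3 gave no member past the threshold in the fit of group means alone. Irf7 had the largest difference again, at 1.76-fold higher, and no other member differed by more than 0.20 on the log2 scale. The 0 calls among 7 members stand against 0.225% of all genes called, with 0.189% higher and 0.0359% lower (limma). At an unadjusted p of 0.05, Irf7 alone passed, against 12.5% of all genes. The members' median log2 fold change was 0.11, against 0.02 for all genes, and their median size without sign was 0.11, against 0.07.

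Irf7 read 10.26 and 9.85 log2 signal in SRC-3-deficient cells, against 9.68 and 8.80 in SRC-3 wild-type cells. The SRC-3-deficient arrays were above both wild-type arrays, but SRC-3 wild-type replicate 2 stood far below the other three. The log2 fold change was 0.81 ± 0.31 (SE, 95% interval 0.09 to 1.53, n = 2 each, unadjusted p = 0.0315, limma adjusted p = 0.344), at percentile 99.6 of all genes. It was 0.37 without SRC-3 wild-type replicate 2 (adjusted p = 0.597) and 1.26 without SRC-3 wild-type replicate 1 (adjusted p = 0.108). Without SRC-3-deficient replicate 1, the array with low Xist, it was 0.61 (adjusted p = 0.604).

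Irf1 read 10.94 and 10.84 in SRC-3-deficient cells, against 10.80 and 10.58 in SRC-3 wild-type cells, and Irf2 read 11.71 and 11.62 in SRC-3-deficient cells, against 11.60 and 11.56 in SRC-3 wild-type cells. Both genes had pairs that did not overlap, with the nearest arrays close together. The differences were 0.20 (95% interval -0.004 to 0.40, limma adjusted p = 0.406) for Irf1 and 0.08 (95% interval -0.08 to 0.25, adjusted p = 0.706) for Irf2. Irf9 read 11.53 and 11.32 in SRC-3-deficient cells, against 11.38 and 11.08 in SRC-3 wild-type cells. Its pairs overlapped, with a difference of 0.20 (95% interval -0.06 to 0.46, adjusted p = 0.522).

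Irf3 read 9.76 and 9.86 in SRC-3-deficient cells, against 9.81 and 9.89 in SRC-3 wild-type cells (difference -0.04, 95% interval -0.19 to 0.11, limma adjusted p = 0.879). Irf5 read 9.55 and 9.35 in SRC-3-deficient cells, against 9.70 and 9.31 in SRC-3 wild-type cells (difference -0.05, 95% interval -0.37 to 0.27, adjusted p = 0.930). Irf8 read 9.17 and 8.88 in SRC-3-deficient cells, against 9.13 and 8.70 in SRC-3 wild-type cells (difference 0.11, 95% interval -0.32 to 0.53, adjusted p = 0.877). The pairs of these 3 genes overlapped, and the intervals for Irf5 and Irf8 are wider than those for Irf3. The macrophage or monocyte list summed to 1203 to 1339 in SRC-3-deficient cells, against 1090 to 1163 in SRC-3 wild-type cells, and the dendritic list to 767 to 794 in SRC-3-deficient cells, against 776 to 843 in SRC-3 wild-type cells. Cd68, the only macrophage or monocyte marker past the filter, read 9.38 and 9.06 log2 signal in SRC-3-deficient cells, against 8.97 and 8.84 in SRC-3 wild-type cells. The B cell list summed to 1964 to 2037 in SRC-3-deficient cells, against 1475 to 2060 in SRC-3 wild-type cells. Ebf1 gave 1244 to 1344 of that sum in SRC-3-deficient cells, against 703 to 1366 in SRC-3 wild-type cells. The other 5 B cell markers gave 693 to 720 in SRC-3-deficient cells, against 694 to 772 in SRC-3 wild-type cells.

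Across the SRC-3 comparison, 3 of 7 members had pairs that did not overlap, all with the deficient arrays above, against 37.2% of all genes (23.0% above and 14.3% below). For 6 members, all but Irf3, replicate 1 read higher than replicate 2 in both SRC-3 genotypes, which held for 28.7% of all genes. For 4 of them, Irf2, Irf5, Irf7 and Irf9, the same held in the RORγt-deficient pair, against 11.8% of all genes.

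**Figure D2:**
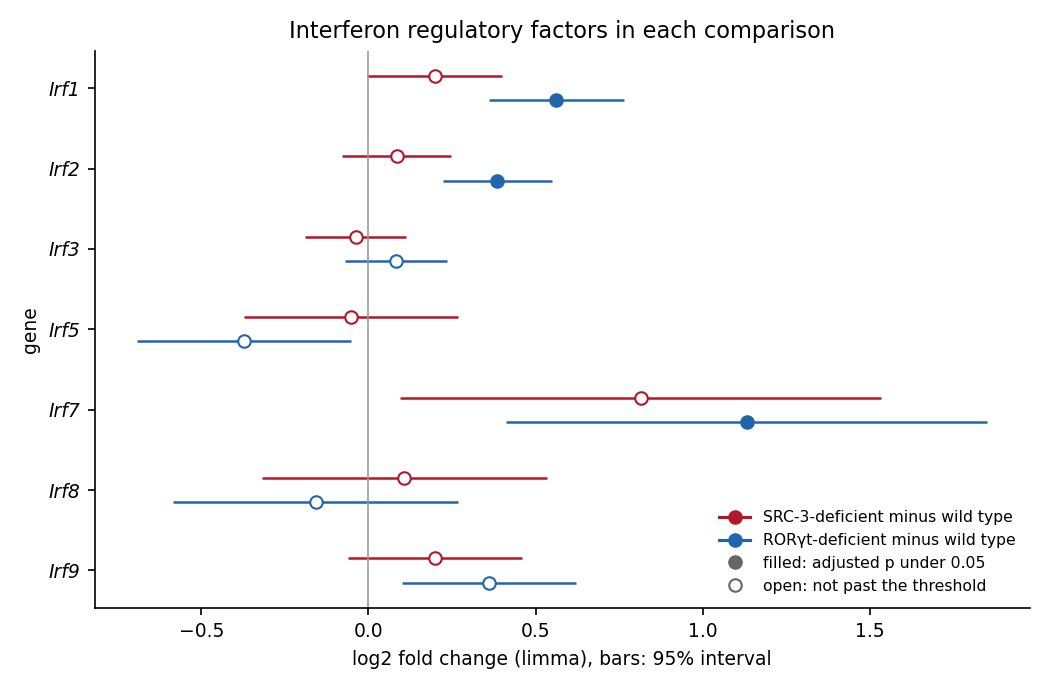
Log2 fold changes of the 7 members (horizontal axis) with 95% intervals from limma, SRC-3-deficient minus wild type above RORγt-deficient minus wild type for each gene, filled where the adjusted p passed 0.05. The filled points are Irf1 (0.56), Irf2 (0.39) and Irf7 (1.13), all in the RORγt comparison.

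The plot of fold changes shows that the intervals of the SRC-3 and RORγt comparisons overlapped for each member. The difference between the comparisons was tested as the RORγt log2 fold change minus the SRC-3 one, which share no array. None of the 7 members passed, against 1.67% of all genes (0.746% with a positive and 0.926% with a negative difference, limma). At an unadjusted p of 0.05, 2 members passed, against 17.3% of all genes. They were Irf1, with a difference of 0.36 (95% interval 0.08 to 0.65, limma adjusted p = 0.20), and Irf2, with 0.30 (95% interval 0.07 to 0.53, adjusted p = 0.192). For Irf7 the difference was 0.32, with a 95% interval of -0.70 to 1.34 that spans a larger response to either deficiency (adjusted p = 0.760). The other members had 0.12 (Irf3, adjusted p = 0.544), -0.32 (Irf5, adjusted p = 0.441), -0.27 (Irf8, adjusted p = 0.647) and 0.16 (Irf9, adjusted p = 0.648).

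**Figure D3:**
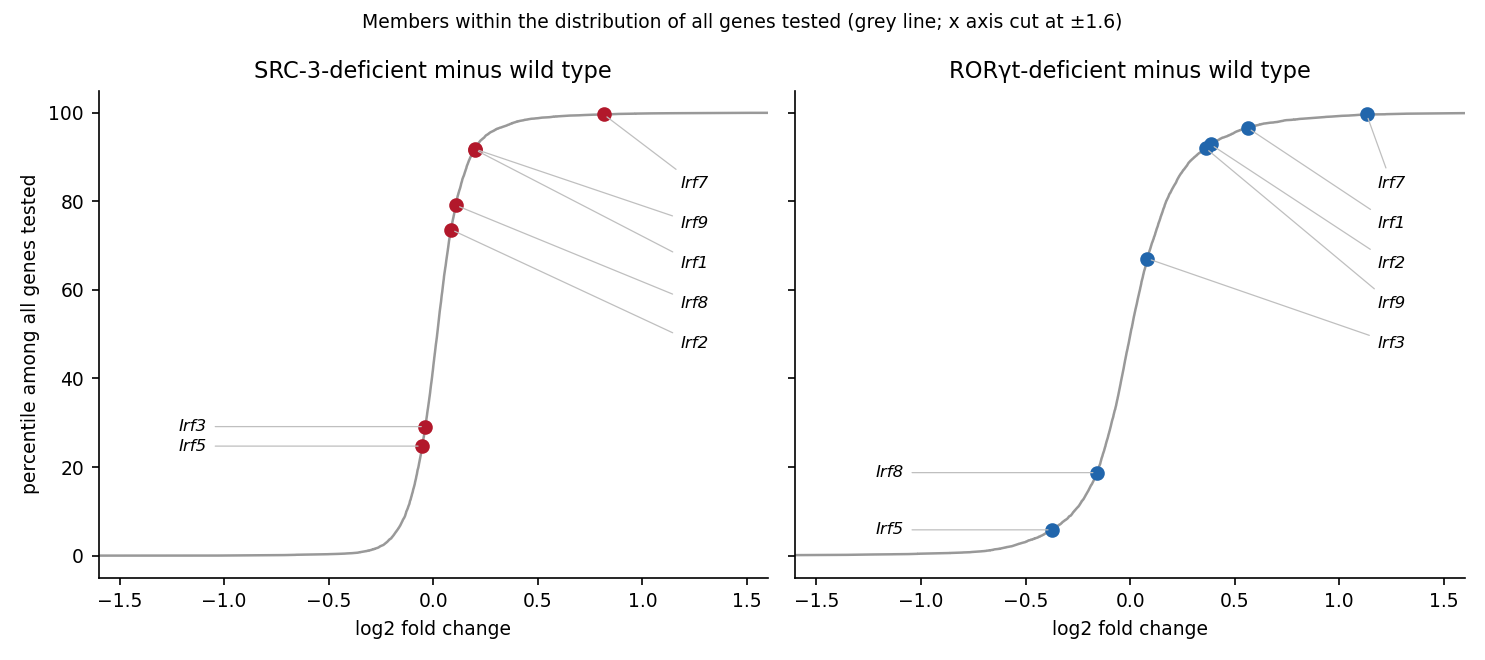
Percentile of each log2 fold change among the 11128 genes tested (vertical axis) against the log2 fold change (horizontal axis), SRC-3 on the left and RORγt on the right, with all genes as a grey line and the members as points. Irf7 lies at percentile 99.6 in both panels, and Irf5 lies at percentile 24.7 in the SRC-3 panel and 5.84 in the RORγt panel.

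The percentile plot sets the members against all genes, whose fold changes spread more widely in the RORγt comparison. Without RORγt, Irf1 stood at percentile 96.6, Irf2 at 92.8, Irf9 at 92.01, Irf3 at 67.1 and Irf8 at 18.8. Without SRC-3, Irf9 stood at percentile 91.8, Irf1 at 91.7, Irf8 at 79.1, Irf2 at 73.6 and Irf3 at 29.1.

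The order of the 4 groups differed by gene, and it is given as a description because the experiments had different array medians. Irf7 averaged 10.99 ± 0.47 in RORγt-deficient cells, 10.06 ± 0.29 in SRC-3-deficient cells, 9.86 ± 0.07 in RORγt wild-type cells and 9.24 ± 0.62 in SRC-3 wild-type cells (SD, n = 2 each). The middle groups of Irf7 overlapped and the other neighbours did not. Irf1 ran from RORγt-deficient (11.11) through SRC-3-deficient (10.89) to SRC-3 wild type (10.69) and RORγt wild type (10.55), and the last pair overlapped. Irf2 stood apart only in RORγt wild-type cells (11.23), below SRC-3-deficient (11.66), RORγt-deficient (11.61) and SRC-3 wild-type cells (11.58), which overlapped as neighbours. Irf5 stood apart only in RORγt-deficient cells (9.19), below 9.45 in SRC-3-deficient, 9.50 in SRC-3 wild-type and 9.57 in RORγt wild-type cells. The margin was narrow, with the highest RORγt-deficient array at 9.30 and the lowest SRC-3 wild-type array at 9.31.

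Irf3 and Irf8 were ordered by experiment rather than by deficiency. Irf3 averaged 10.12 in RORγt-deficient and 10.04 in RORγt wild-type cells, both above 9.81 in SRC-3-deficient and 9.85 in SRC-3 wild-type cells. Irf8 averaged 9.60 in RORγt-deficient and 9.76 in RORγt wild-type cells, both above 9.03 in SRC-3-deficient and 8.92 in SRC-3 wild-type cells. No fit compared levels between the experiments. Irf9 had no neighbours apart, from 11.56 in RORγt-deficient and 11.43 in SRC-3-deficient cells to 11.23 in SRC-3 wild-type and 11.20 in RORγt wild-type cells.

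Irf1, Irf2, Irf7 and Irf9 also varied together over the 8 arrays, with the group differences included. After the mean of its own 4 arrays was taken from each experiment, Irf7 and Irf9 had r = 0.978 (rho = 0.976) over the 8 arrays, Irf1 and Irf2 had r = 0.931 (rho = 0.976), and Irf1 and Irf9 had r = 0.922 (rho = 0.833). Irf3 and Irf5 ran opposite to each other (r = -0.869, rho = -0.833). Irf7 had r = 0.886 with Irf1 and 0.869 with Irf2. These values describe 8 arrays that share 4 groups and carry the group differences, so no p is given. Within the RORγt-deficient pair Irf1 did not follow Irf7. Its centred values there were 0.255 and 0.307, against 0.897 and 0.234 for Irf7.

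Irf7 was also close to the mean of 20 ISGF3 target genes, among them the Ifit, Oas and Mx antiviral genes, computed in the same way. That mean was 0.69 and 0.07 in RORγt-deficient cells, against -0.38 and -0.39 in RORγt wild-type cells, and 0.48 and 0.12 in SRC-3-deficient cells, against 0.01 and -0.62 in SRC-3 wild-type cells. Irf7 deviated by 0.90 and 0.23 in RORγt-deficient cells, against -0.52 and -0.61 in RORγt wild-type cells, and by 0.61 and 0.20 in SRC-3-deficient cells, against 0.03 and -0.85 in SRC-3 wild-type cells. The arrays highest and lowest in Irf7 within each experiment were thus also highest and lowest in the target mean. With that mean, r was 0.994 for Irf7, 0.963 for Irf9, 0.845 for Irf2 and 0.837 for Irf1, and 0.01 for Irf8, -0.16 for Irf5 and -0.17 for Irf3.

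**Figure D4:**
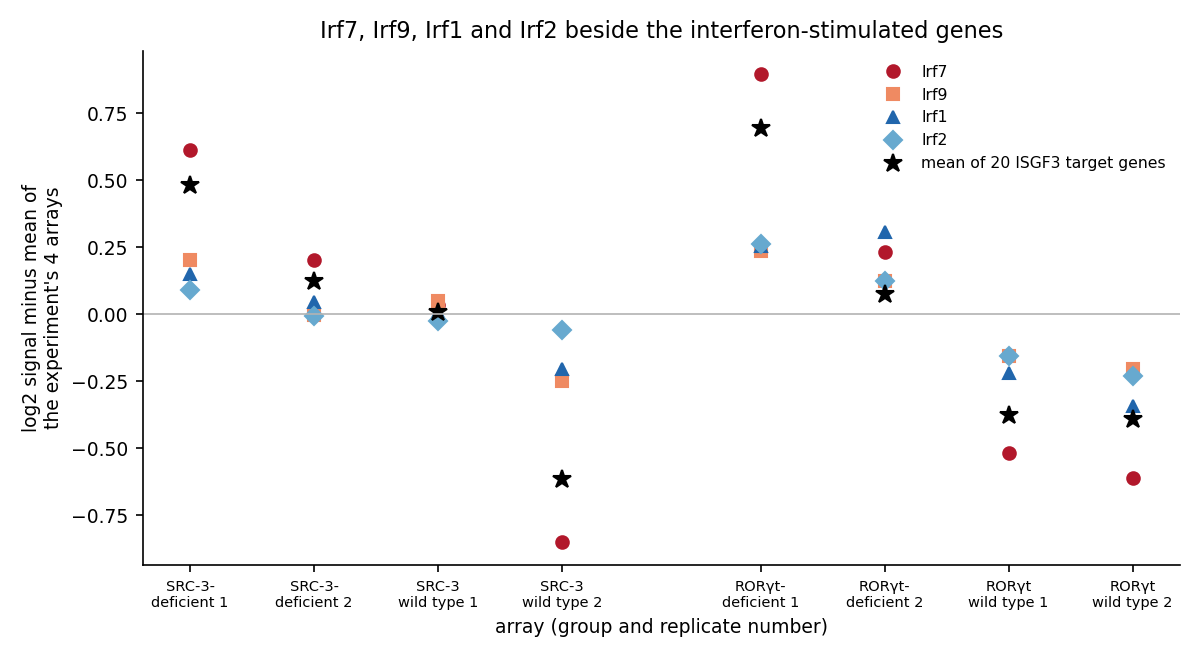
Log2 signal minus the mean of the experiment's 4 arrays (vertical axis) for Irf7, Irf9, Irf1 and Irf2 and for the mean of 20 ISGF3 target genes (stars) on each array (horizontal axis). The stars and Irf7 are lowest on SRC-3 wild-type replicate 2 (-0.62 and -0.85) and highest on RORγt-deficient replicate 1 (0.69 and 0.90).

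The plot of centred signal shows Irf7 moving further than Irf9, Irf1 and Irf2 on each array but SRC-3 wild-type replicate 1 and RORγt-deficient replicate 2. The genes nearest to each member by this measure, among all genes tested, were Oas3 (r = 0.998), Dhx58 (0.996) and Xaf1 (0.996) for Irf7, and Ifi27l2a (0.993), Stat2 (0.991) and H2-T24 (0.990) for Irf9. For Irf1 they were Gramd3 (0.989), Ddr1 (0.988) and Fam20a (0.988), and for Irf2 Rab29 (0.995), Cep97 (0.993) and Sesn1 (0.986). For Irf3 they were Elp3 (0.975), Meis3 (0.957) and Kcnj11 (0.956), for Irf5 Peak1 (0.982), Ino80 (0.965) and Tmem170b (0.965), and for Irf8 Kdm6b (0.984), Lnx2 (0.969) and Msantd4 (0.959). Each set was picked as the highest of 11128 genes over 8 arrays, so the values are a description.

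The pathway around the IRFs was read from 6 lists. Of the sensors, adaptors and kinases that activate Irf3, Irf5 and Irf7, 18 of 20 were measured and 15 passed the filter. Without RORγt, 4 rose and 1 fell, against 10.0% of all genes called higher and 9.37% called lower. Sting1, the adaptor of cytosolic DNA sensing, rose by 0.41 (limma adjusted p = 0.00604), the kinase Ikbke by 0.47 (adjusted p = 0.00691) and the RNA sensor Ddx58 by 0.63 (adjusted p = 0.0302), while Ticam1, the adaptor of Tlr3, fell by 0.32 (adjusted p = 0.0255). Without SRC-3 none of the 15 passed, 4 passed at an unadjusted p of 0.05, against 12.5% of all genes, and the smallest p belonged to Traf6 (0.20, adjusted p = 0.296) and the RNA sensor Ifih1 (0.81, adjusted p = 0.316). The list medians were 0.15 without RORγt and 0.11 without SRC-3, against 0.00 and 0.02 for all genes.

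Interferon receptors and their signalling, which feed Irf1 and Irf9, had 10 of 11 genes measured. Without RORγt, 4 rose and none fell, against 10.0% of all genes called higher and 9.37% called lower, with a median of 0.30. Ifngr1, a chain of the interferon gamma receptor, read 12.25 and 12.16 in RORγt-deficient cells, against 11.40 and 11.42 in RORγt wild-type cells, and rose by 0.79 (limma adjusted p = 0.00204). The type I receptor chains Ifnar1 (0.38, adjusted p = 0.0101) and Ifnar2 (0.25, adjusted p = 0.0362) rose, and so did Stat2, the partner of Irf9 (0.72, adjusted p = 0.0418). Stat2 read 11.73 and 11.35 in RORγt-deficient cells, against 10.87 and 10.78 in RORγt wild-type cells. Without SRC-3 none passed and 4 did at an unadjusted p of 0.05, against 12.5% of all genes, with a median of 0.26. Ifnar2 had 0.30 (adjusted p = 0.131) and Ifngr2 0.36 (adjusted p = 0.132).

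DNA-binding partners and regulators of IRFs had 9 of 13 genes past the filter. Without RORγt, 1 rose and 2 fell, against 19.4% of all genes called in either direction. Batf3, which pairs with Irf8 and Irf4, fell by 0.50 (limma adjusted p = 0.00795) and the corepressor Irf2bp2 by 0.29 (adjusted p = 0.0359), while the ubiquitin ligase Trim21 rose by 0.51 (adjusted p = 0.0412). The list medians were -0.08 without RORγt and 0.01 without SRC-3. No gene of the list passed without SRC-3 (2 at an unadjusted p of 0.05, against 12.5% of all genes), where Jund had 0.28 (adjusted p = 0.234) and Irf2bp2 -0.19 (adjusted p = 0.380).

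ISGF3 targets, the readout of Irf9 and the genes among which Irf7 itself is usually counted, had 20 of 22 genes past the filter. Without RORγt, 6 rose and none fell, against 10.0% of all genes called higher. The median was 0.80, and 15 passed at an unadjusted p of 0.05, against 34.6% of all genes. Of the 20 genes, 1 was called without RORγt-deficient replicate 1 (median 0.53), without RORγt wild-type replicate 1 or without RORγt wild-type replicate 2. Mx1, a GTPase that blocks viral replication, rose by 1.43 (limma adjusted p = 0.0183), Oasl2 by 1.32 (adjusted p = 0.0271), the nucleic acid sensor Zbp1 by 0.83 (adjusted p = 0.0100) and Ifit2 by 0.71 (adjusted p = 0.00428). Without SRC-3 all 20 log2 fold changes were positive, with a median of 0.58, yet none passed and 10 did at an unadjusted p of 0.05, against 12.5% of all genes. The median was 0.26 without SRC-3 wild-type replicate 2, with 1 gene at an unadjusted p of 0.05, and 0.92 without SRC-3 wild-type replicate 1, and all 20 values stayed positive in both. Without SRC-3-deficient replicate 1 it was 0.41, with 1 gene at that p. Zbp1 had 0.62 (adjusted p = 0.155) and Oasl2 1.05 (adjusted p = 0.247) there.

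Genes linked to Irf1 in antigen processing and the interferon gamma response had 16 of 18 measured, all past the filter. Without RORγt, 8 rose and 1 fell, against 10.0% of all genes called higher and 9.37% called lower, with a median of 0.38. The guanylate-binding proteins Gbp3 (0.92, limma adjusted p = 0.000616) and Gbp5 (0.89, adjusted p = 0.00299) rose, as did Tapbp, which loads peptides on MHC class I (0.42, adjusted p = 0.00879). Il12rb1, a receptor chain shared by IL-12 and IL-23, fell by 0.52 (adjusted p = 0.00722). Without SRC-3 none passed and 9 did at an unadjusted p of 0.05, against 12.5% of all genes, with a median of 0.21. It was 0.31 without SRC-3 wild-type replicate 1 and 0.14 without SRC-3 wild-type replicate 2. Gbp5 had 0.59 (adjusted p = 0.0829) and Tapbp 0.28 (adjusted p = 0.174).

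**Figure D5:**
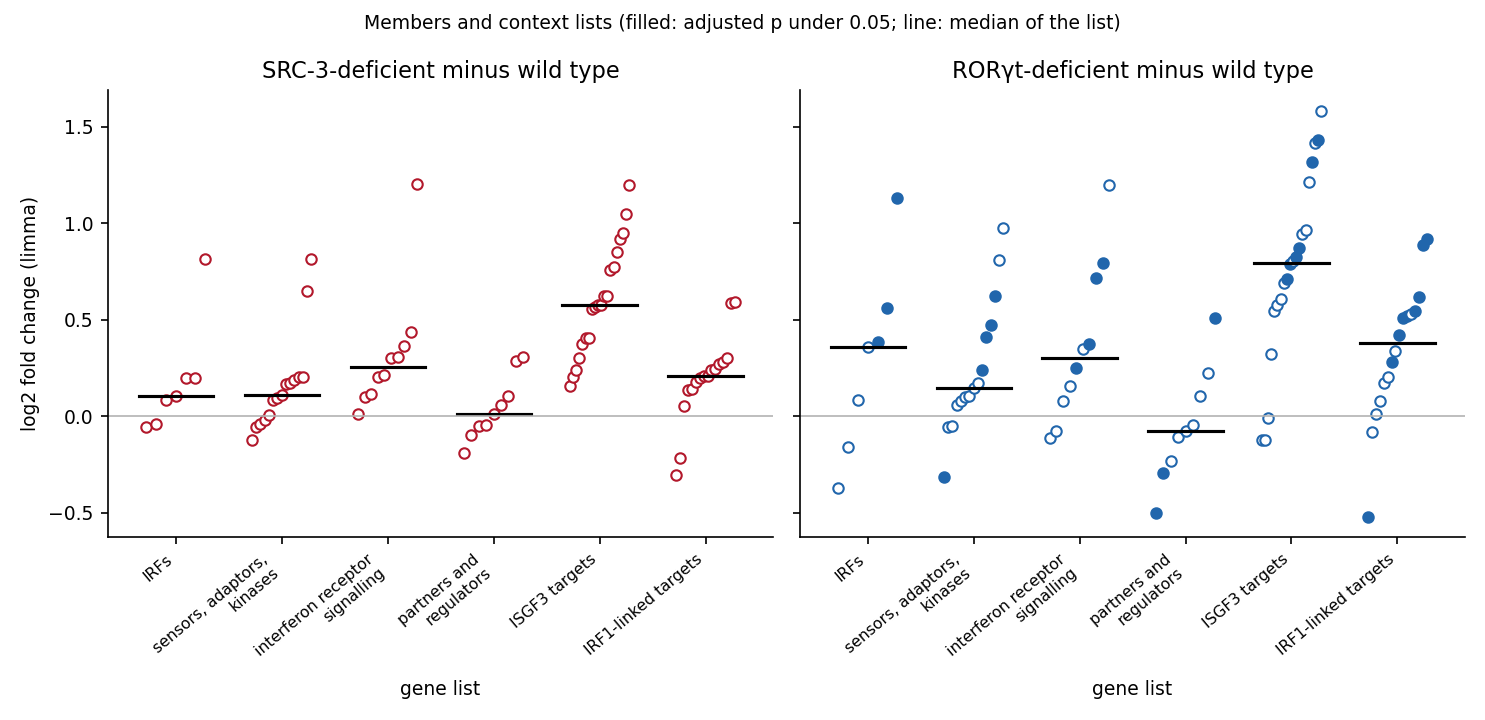
Log2 fold change from limma (vertical axis) of the 7 members and of the genes past the filter in 5 lists of the interferon pathway (horizontal axis), SRC-3 on the left and RORγt on the right, filled where the adjusted p passed 0.05, with a line at each list's median. The ISGF3 targets have medians of 0.58 without SRC-3 and 0.80 without RORγt, and no point is filled in the SRC-3 panel.

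The plot of lists places the IRFs between their activators and the ISGF3 targets by median in the RORγt panel. Of the list genes named as changed without RORγt, Ifngr1, Ifit2, Gbp3 and Gbp5 passed under all alternatives run. The others lost the call when at least 1 of the RORγt arrays was left out, with adjusted p up to 0.236 for Stat2 and Trim21. Stat2, Trim21 and Ifnar2 also lost it under a new quantile normalization, and Irf2bp2, Trim21 and Ifnar2 without the filter. Gbp5 passed in the SRC-3 comparison without SRC-3 wild-type replicate 1 (0.74, adjusted p = 0.0352). In the lists other than the ISGF3 targets, fewer genes were called whichever RORγt array was left out, and such fits leave 1 array in a group. In all of these lists sex cannot be told apart from genotype in the RORγt values. Of the interferon genes themselves, 7 of 8 were measured and Ifnl2 alone passed the filter, with 0.00 without RORγt (limma adjusted p = 0.989) and -0.10 without SRC-3 (adjusted p = 0.707). Ifng, whose product induces Irf1, reached the filter value on 1 of 8 arrays. In the fit without the filter it had 0.57 without RORγt (adjusted p = 0.0136) and -0.11 without SRC-3 (adjusted p = 0.810). The other interferon genes below the filter did not pass there without RORγt. They were Ifnb1 (-0.27, limma adjusted p = 0.129), Ifne (-0.18, 0.142), Ifnk (-0.06, 0.789), Ifna4 (-0.05, 0.830) and Ifna2 (0.14, 0.522). Ifng read 7.60 and 7.87 in RORγt-deficient cells, against 7.17 and 7.16 in RORγt wild-type cells.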

How the data were processed

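The 8 arrays, 2 in each of 4 groups named by the sample titles, were read as log2 values deposited by the authors, which the submitters' processing notes credit to RMA and Affymetrix Expression Console; versions and any joint normalization of the experiments are not given in the sources used here. No array was dropped. Of 35556 probe sets, 21789 had 1 gene symbol in GEO's platform annotation, 1621 several and 12146 none. A gene was its probe set of highest mean, kept at 7.85 (the median of all values) or above on at least 2 arrays, which left 11128 genes. Group means were fitted on all arrays with limma 3.58.1 in R 4.3.3 (lmFit, eBayes, 4 residual degrees of freedom), two-sided, with Benjamini-Hochberg adjustment over all genes and a threshold of 0.05. The fit was tested on simulated data with the same spread for every gene of an experiment and changes in the RORγt comparison only. That setting does not cover genes with spreads as wide as that of Irf7. Precision is limited by having 2 arrays a group. The labels do not tie replicates to separate animals. The p-values thus weigh each difference only against the spread of these samples, estimated over all 4 groups. Summed marker signals are on the linear scale. Centred values subtract the mean of the experiment's 4 arrays. All members were named, and of each list up to 4 genes past the threshold by smallest p, otherwise up to 2. Members and lists were chosen with earlier results of these data known. Alternatives were another normalization, other filters, the mean of probe sets, the 4 arrays alone, a trend and robust prior, array weights, a replicate block and leaving out each array. Leaving out arrays for the list medians was chosen after seeing the data.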

Additional observations from a re-analysis of the deposited data

How the results depend on the processing

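No member or named gene reversed a called direction under any alternative run, and the SRC-3 comparison called no member under each one but the replicate block. Deviations of samples with the same replicate number correlated at 0.54 in the SRC-3 experiment and 0.00 in the RORγt experiment, and no label says that the numbers pair samples. With the replicate number as a block, 1 member (Irf7, 0.81, adjusted p = 0.0476) and the named list genes Zbp1 (adjusted p = 0.0101), Gbp5 (0.0245), Ifngr2 (0.0400) and Ifih1 (0.0479) were called without SRC-3, as were 5 members without RORγt, while genes called numbered 301 without SRC-3, 3411 without RORγt and 945 for the difference of the comparisons. The calls of the fit without the block were 25, 2157 and 186. With the 4 arrays of each comparison alone, 0 genes were called without SRC-3 (limma, 827 at an unadjusted p of 0.05) and 3389 without RORγt, 5 members among them. Array weights gave 10 genes without SRC-3 and 3679 without RORγt, with 5 members. A trend and robust prior gave 47 genes without SRC-3, and the stricter filter gave 14 there and 119 for the difference. Leaving out 1 array at a time gave 0 to 61 genes without SRC-3 (0 without SRC-3 wild-type replicate 2, with 1457 at an unadjusted p of 0.05), 486 to 2539 without RORγt and 15 to 264 for the difference. Members called ranged from 0 to 0 without SRC-3 and from 0 to 5 without RORγt, with 0 without RORγt wild-type replicate 2. The cause of these shifts was not tested. Leaving out arrays also leaves fewer samples, and calls went down in some of these fits and up in others. The median SD of a pair across genes was 0.068 in SRC-3-deficient and 0.074 in SRC-3 wild-type samples. It was 0.044 in RORγt-deficient and 0.046 in RORγt wild-type samples, and the fit estimates each gene's spread over all 4 groups. Values that were not called turned sign when 1 array was left out for Irf3, Irf5 and Irf8 (SRC-3), for Irf8 (RORγt) and for the Irf7 difference of the comparisons. All 7 members lay above the signal filter, and Irf5 did not pass the stricter one.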

Other observations

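The promoter windows were also read by list, counting genes with at least 1 window that held the letters. An ISRE core lay in 9 of 16 ISGF3 target genes with a window, among them Ifit1, Ifit3, Oas1a, Oas3 and Rsad2, and in 8 of 15 genes linked to Irf1, among them Gbp3, Gbp5 and Psme1. It lay in 1 of the 7 IRF genes, Irf2, and in 3.99% of all 27025 genes with a window. A GAS core lay in 3 of the 7 IRF genes, Irf1, Irf2 and Irf8, against 9.55% of all genes. A ROR core lay in Irf9 alone among the IRFs, against 18.1% of all genes, and in Il17a, Il17f and Il23r, the 3 Th17 genes of the checks that had a window. These counts describe letters in windows and show no binding.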
